A study of Mus musculus with 249 samples.

Results

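The stretch described here is chr. 8 from 43 to 47 Mb of the mouse genome, which holds Zfp42 and Fat1. It was taken by position alone and spans 100 of the 68162 windows of 40 kb listed for the genome, and 100 of the 3294 windows of chr. 8. The question was whether both genes lie in separate linkage blocks in embryonic stem cells, when their linkage is set against window pairs of equal distance on the same chromosome.

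The 249 libraries came from multiplex genome architecture mapping (GAM) of 46C cells. This is a mouse embryonic stem cell line of strain 129/Ola that carries a green fluorescent protein gene knocked into Sox1, and all libraries share this genotype and growth in medium with leukaemia inhibitory factor, followed by a serum-free medium on the day before harvest. In GAM, thin cryosections of nuclei are cut, slices of single nuclei (nuclear profiles) are collected by laser microdissection, and their DNA is amplified and sequenced. The titles state that 4 profiles were cut for each tube, and the description of the series gives a lower average.

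By their titles, the libraries fell into 11 experiments with 20 groups. In 7 experiments the protocol was varied. These compared 3 sets of amplification reagent volumes (protocol-a, 10 libraries, protocol-b, 11, and protocol-c, 10) and 2 proteinase K volumes (5 libraries at 1 µl and 6 at 2 µl). They also compared tubes frozen after incubation (10) with unfrozen tubes (11), early (12) with late freezing (11), and 20 (4), 23 (5) and 25 PCR cycles (3). The last 2 compared cresyl violet staining (16) with no stain (10) and a large (11) with a small amplification kit (12). A single arm was given for the full collection (54 libraries, stained with cresyl violet) and for the unstained libraries of tests with propidium iodide (20), SYBR Gold (10) and eosin (18). The protocol text contradicts the titles on SYBR Gold staining and on the proteinase K volumes, and the titles were followed. All libraries derive from a single line in a single state, and no separate cultures are named. The p-values below therefore measure the spread between libraries only.

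Zfp42 encodes REX1, a zinc finger protein that is widely used as a marker of naive pluripotent cells and is switched off when they differentiate. Fat1 encodes a giant atypical cadherin, a membrane protein with roles in cell polarity and adhesion. Chromosomes fold into domains within which loci meet more often than across domain borders, and borders often coincide with sites of the insulator protein CTCF. In GAM, loci that are close in the nucleus are found in the same slices more often than chance predicts. This excess is expressed as the normalized linkage D′, which is 0 for independent loci and 1 for the highest co-segregation that the detection frequencies allow. A value of the table is a binary call, positive or not, so the read depth behind each call is unknown.

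In the mouse assembly NCBIM37 (mm9), Zfp42 lies on the minus strand at chr8:44380422-44392363 and Fat1 on the plus strand at chr8:46035562-46137611. Their start windows, chr8:44360001-44400000 and chr8:46000001-46040000, are 1640 kb or 41 windows apart. The annotation places 19 protein-coding genes in the 4 Mb. Upstream of Zfp42 on the chromosome lie the tripartite motif family-like genes Triml1 and Triml2, and beyond it lie Adam26b, Adam26a, Gm5346 and Adam34, called the Adam cluster here after the ADAM metalloprotease family. Between the end of Adam34 and the start of Fat1, 1250720 bases hold no protein-coding gene. This interval is called the stretch without genes below, although genes of other types were not looked at. Past Fat1 follow Mtnr1a, a melatonin receptor, the plasma protease genes F11 and Klkb1, Cyp4v3, Fam149a, the RNA sensor Tlr3, and Sorbs2 and Pdlim3, which encode proteins of the cytoskeleton.

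The sequence around both starts was searched for the core of the CTCF motif, written as CCANNAGNNGGC, on both strands. The Zfp42 start window held 3 matches, the window before it 5 and the window after it 8. The Fat1 start window held 2 and its neighbours 0 each. Over the 4 Mb, 63 of 100 windows held at least 1 match, against 78.1% of chr. 8 windows, and 1 window held 8 or more, against 3.33% of chr. 8 windows. Of the 16 matches in and beside the Zfp42 window, 12 followed the same leading run of 10 bases, allowing for 3 mismatches, and 11 had the same core, CCAGAAGAGGGC. The sequences below show this repeated form beside the forms that differ from it. The boundary called at Zfp42 over all libraries lies at the edge of its window, and a link between matches and boundary was not tested. Capitals mark the motif match, each read on its own strand.
Zfp42 window, chr8:44364381-44364412, minus strand: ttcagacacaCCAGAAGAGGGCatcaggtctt
Before Zfp42, chr8:44337184-44337215, plus strand: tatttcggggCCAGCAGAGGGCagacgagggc
After Zfp42, chr8:44418009-44418040, minus strand: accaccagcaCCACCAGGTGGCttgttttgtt
Fat1 window, chr8:46012924-46012955, plus strand: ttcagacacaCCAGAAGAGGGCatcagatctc
Fat1 window, chr8:46036834-46036865, plus strand: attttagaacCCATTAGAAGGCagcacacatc
A match is a string of letters and no measurement of binding. The first and the fourth sequence share the repeated form, which was thus present at both genes. How common this form is among the matches of all chr. 8 was not counted, so it cannot be called particular to either gene.

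Both genes were detected about as often as other windows. The Zfp42 start window was positive in 51 of 249 libraries (20.5%, 95% Wilson interval 15.9 to 25.9%) and the Fat1 start window in 55 (22.1%, 17.4 to 27.6%). These intervals cover counting error over libraries only. All 100 windows were positive in at least 25 libraries, the minimum used for linkage, which 94.2% of chr. 8 windows reached. Of the 100, 61 were positive in at least 40 libraries, against 79.2% of chr. 8 windows. The median window was positive in 42.5 libraries (range 25 to 57), and the median of the other chr. 8 windows past the same minimum was 49.

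Detection was uneven along the 4 Mb. The count of positive libraries per window had an SD of 7.31 there and of 10.2 in the rest of chr. 8. The blocks of windows named next were drawn after values had been seen. In the 1.2 Mb before Triml1, 30 windows were positive in 36.2 libraries on average, and in the 5 windows from Triml1 to Zfp42 in 49.6. The 5 windows of the Adam cluster averaged 39.2 libraries, and the 5 windows from Fat1 to Mtnr1a 54.2. The region had a mean GC content of 39.4%, and the rest of chr. 8 had 42.5%, which was not adjusted for, and its part in detection was not tested.

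Each library was then described by the percent of its windows that were positive. Over the region this was 0% in the lowest library, 7.0% in the median and 85.0% in the highest, and 61 libraries had no positive window there. The mean was 17.02% ± 20.4 (SD, n = 249) in the region and 18.6% ± 12.8 in the rest of chr. 8. The difference of -1.59 percentage points (SE 1.06) was within the spread between libraries (sign-flip permutation p = 0.133, adjusted p = 0.246), and the region was the higher in 88 libraries. Restricting both sides to windows positive in at least 25 libraries gave -2.75 points (unadjusted permutation p = 0.00987), and a comparison with all other autosomal windows gave -2.36 points (unadjusted permutation p = 0.0473). The size of the difference thus depended on the windows it was set against.

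For each gene a flank of 11 windows was taken, the start window and 5 on each side, 440 kb in all. The Zfp42 flank was positive in 18.1% ± 27.4 of its windows (SD, n = 249) and the Fat1 flank in 20.7% ± 29.5. Both ranged from 0% to 100% with a median of 0%, since 134 libraries had no positive window in the Zfp42 flank and 139 had none in the Fat1 flank. Zfp42 minus Fat1 was -2.59 points (SE 1.58, sign-flip permutation p = 0.106, adjusted p = 0.246). Neither flank differed from the rest of chr. 8 beyond the spread (-0.466 points, SE 1.53, permutation p = 0.759, and 2.13 points, SE 1.59, permutation p = 0.184).

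Zfp42 and Fat1 were found together more often than independence predicts. Both start windows were positive in 24 libraries, Zfp42 alone in 27, Fat1 alone in 31 and neither in 167, where independent windows would give 11.3 libraries with both. Of the libraries with Zfp42, 47.1% also held Fat1, against 22.1% of all libraries. Fisher's exact test gave an odds ratio of 4.79 (two-sided p = 6.49e-06). With a gene counted as present when at least 6 of its 11 flank windows were positive, 23 libraries held both, 19 Zfp42 alone, 25 Fat1 alone and 182 neither, where independence gives 8.10. Neither the expected counts nor Fisher's test allowed for library coverage, which ranged from 3.40% to 45.2% of windows. Loci on the same chromosome at such a distance also share slices in any case, so this excess was set against pairs of equal distance.

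The start windows had a D′ of 0.320 ± 0.0810 (jackknife SE over 249 libraries). The 2970 chr. 8 pairs 1640 kb apart had a mean D′ of 0.270 (SD 0.0897, from -0.106 to 0.634). The z-score of the gene pair, its D′ minus this mean in units of this SD, was 0.57 ± 0.88 (jackknife SE), and 72.0% of the equal-distance pairs had a lower D′. Zfp42 and Fat1 were therefore neither less nor more linked than such pairs beyond the error. The Zfp42 start window and the 4 windows of the Fat1 gene body had a mean D′ of 0.355 ± 0.0633 and a z-score of 0.98 ± 0.67.

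**Figure D1:**
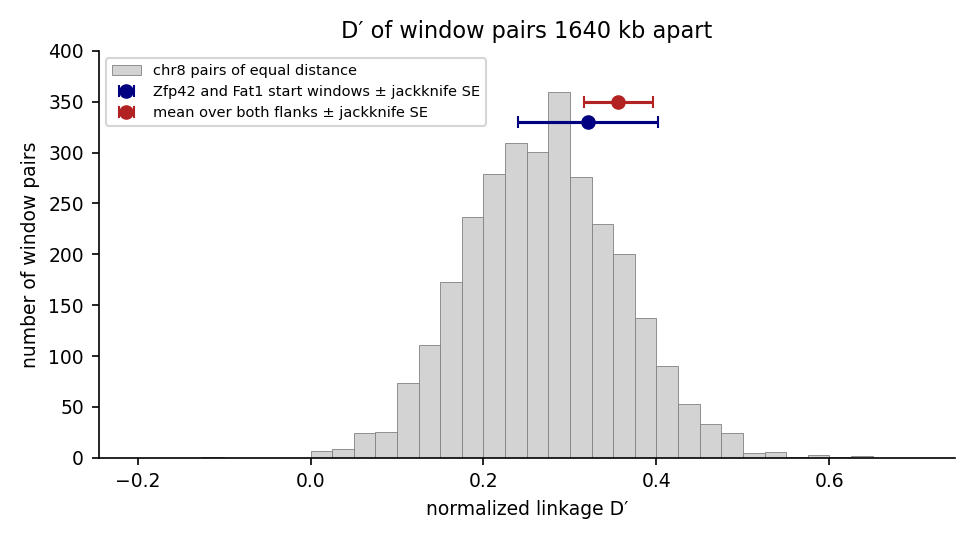
The histogram shows D′ (horizontal axis) of all 2970 window pairs on chr. 8 that lie 1640 kb apart, with the number of pairs on the vertical axis, and the points show the Zfp42 and Fat1 start windows (0.320) and the mean over both flanks (0.356) with jackknife SE as bars. Both points lie to the right of the mean of the equal-distance pairs (0.270), and the bar of the start windows spans it.

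Averaging over the flanks reduced the error. The 121 window pairs between the Zfp42 flank and the Fat1 flank had a mean D′ of 0.356 ± 0.040 (jackknife SE) and a mean z-score of 0.92 ± 0.40. Of these pairs, 102 had a z-score above 0, where 49.7% of chr. 8 pairs at 1640 kb do, and 54 had a z-score above 1, where 15.4% do. None of the 121 had a z-score below -1, where 15.5% of chr. 8 pairs at 1640 kb do. Neighbouring windows share slices, so the 121 pairs are not independent. The same flank mean was taken at all 2964 positions of chr. 8 with this geometry. These had a mean of 0.271 (SD 0.0524), and 96.1% of them lay below the value of Zfp42 and Fat1.

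Pairs inside each flank did not stand above equal-distance pairs. The 45 pairs at least 80 kb apart inside the Zfp42 flank had a mean D′ of 0.476 ± 0.0434 and a z-score of -0.19 ± 0.45. The 45 inside the Fat1 flank had a mean D′ of 0.485 ± 0.0366 and a z-score of -0.10 ± 0.38.

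For a test over libraries, calls were adjusted for the coverage of each library, and the product of the adjusted calls of both windows was taken net of the chr. 8 mean at the same distance. Between the flanks this net linkage was 0.0712 (SE 0.0364, 134 of 249 libraries above 0). It missed the threshold of 0.05 (sign-flip permutation p = 0.0507, adjusted p = 0.101 over 4 tests). Leaving out each library in turn gave an unadjusted p from 0.0347 to 0.0796, below the threshold in 85 of 249 cases, and an adjusted p from 0.0694 to 0.159. At 4.45% of the 2964 chr. 8 positions the same test found a higher linkage with p under 0.05, and at 8.06% a lower one. Net linkage inside the Zfp42 flank was -0.0309 (SE 0.0484, adjusted permutation p = 0.704) and inside the Fat1 flank -0.00872 (SE 0.0368, adjusted permutation p = 0.814).

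Separate blocks with no border inside a flank would give more net linkage within than between the flanks. Within minus between was -0.0911 (SE 0.0237), and it was above 0 in 45 of 249 libraries (sign-flip permutation p = 0.00017, adjusted p = 0.00068). The difference had the sign opposite to this prediction. However, the boundary called over all libraries at the edge of the Zfp42 start window lies inside the Zfp42 flank. Some pairs within that flank span it, so the contrast cannot decide whether the genes lie in separate blocks. The values per library were skewed, which this test does not allow for, and 13.2% of all chr. 8 positions gave a negative difference with p under 0.05 and 4.99% a positive one. Of those positions, 1.99% had a lower difference than Zfp42 and Fat1.

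The libraries were also summarized by experiment. Net linkage between the flanks was above 0 in 7 of 11 experiments, with a mean of 0.0674 ± 0.165 (SD over experiments, exact sign-flip permutation p = 0.203). It was highest in the cresyl violet test (0.349) and lowest in the eosin test (-0.171). The start windows were positive together in 0 of 18 libraries of the eosin test and in 0 of 11 of the proteinase K test, where the net linkage was 0.166. Within minus between was above 0 in 2 of 11 experiments, the proteinase K and SYBR Gold tests, with a mean of -0.0813 ± 0.0931 (exact sign-flip permutation p = 0.0195). It missed the threshold with windows positive in at least 40 libraries (-0.0678, exact permutation p = 0.0742) and with flanks of 3 windows on each side (-0.0651, exact permutation p = 0.170). The mean of the full collection was -0.0604. Recomputed from its 54 libraries alone, window frequencies and chr. 8 means included, it was -0.0717 (adjusted permutation p = 0.267). Without the libraries of the propidium iodide test, net linkage between the flanks was 0.0842 (permutation p = 0.0240, adjusted p = 0.0480), and without the cresyl violet test it was 0.0434 (permutation p = 0.242, adjusted p = 0.484).

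**Figure D2:**
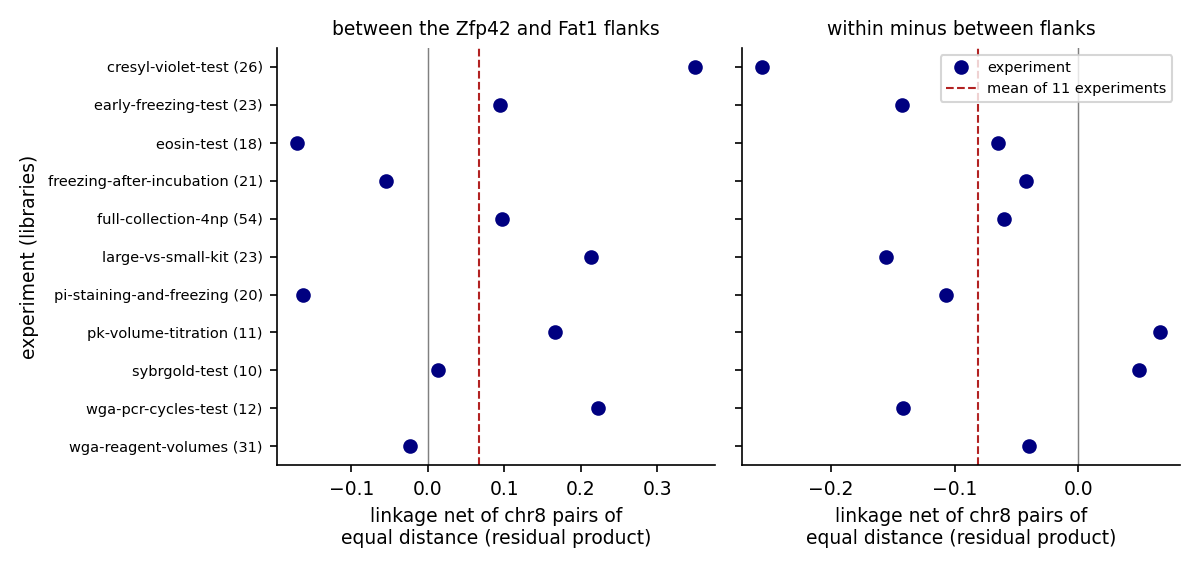
Each point is the mean of an experiment, with its number of libraries in brackets, for net linkage between the Zfp42 and Fat1 flanks (left) and within minus between the flanks (right). The horizontal axes give the residual product net of chr. 8 pairs of equal distance and the dashed line is the mean of the 11 experiments, at 0.0674 (left) and -0.0813 (right).

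To ask whether a domain border separates the genes, an insulation score was computed at each border between windows from all D′ values that span it within 400 kb on either side, averaged. Local minima were called boundaries when their prominence reached 0.5 SD of the score over chr. 8. Of the 3075 chr. 8 borders, 3.84% were boundaries. In the 4 Mb there were 3, and 0 lay between the Zfp42 and Fat1 start windows. This count changed with the setting. With a square of 200 kb 3 boundaries lay between them, with a prominence of 0.25 SD 1 did, and the full collection alone had 1, at 44720001 in the Adam cluster. The other 195 libraries also had 1, at 44440001. When each experiment was left out in turn, the count was 0 in 6 of 11 cases. Over all libraries, the first of the 3 boundaries was at position 43440001, between Gm6180 and Triml1, with a score of 0.329 ± 0.0372 (jackknife SE). The second was at 44360001, the edge of the Zfp42 start window on the side of Triml2 and Gm2221, with a score of 0.346 ± 0.0341, and 4.81% of chr. 8 borders scored lower. The third was at 46240001, between Mtnr1a and F11, with a score of 0.399 ± 0.0376.

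The minimum at Zfp42 had a prominence of 0.0594, where the SD of the score over chr. 8 was 0.0517. Its place was not fixed. At 44440001, 80 kb further on and now between both genes, the score was 0.348 ± 0.0403, within the error of the value at 44360001. Leaving out each library in turn, an alternative chosen after the data were seen, kept the boundary at the edge of the Zfp42 window in 225 of 249 cases, moved it to that position in 19 and to 160 kb before the edge in 5. Leaving out an experiment kept it at the edge in 3 of 11 cases. Without the full collection, the proteinase K or the reagent volume experiment it was 80 kb past the edge. In the other 5 cases no boundary lay within 120 kb of the edge, and the nearest was 160 or 200 kb before it, on the side of Triml1. Without the freezing after incubation or the propidium iodide experiment, a boundary was called at 920 kb from the Zfp42 window, in the stretch without genes. Over all libraries the edge of the Fat1 start window read 0.457 ± 0.0350, and 70.9% of chr. 8 borders were lower.

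The full collection and the other 195 libraries differed at these borders. In the other libraries the lowest border of the 4 Mb was 44440001, with a score of 0.308, and 1.66% of chr. 8 borders were lower. The same border read 0.569 in the full collection, where 89.6% of chr. 8 borders were lower. The full collection had its minimum at 43560001 (-0.116), which read 0.384 in the other libraries. At Fat1 the order of both sets was turned. The edge of the Fat1 start window read 0.368 in the full collection (15.0% of chr. 8 borders lower) and 0.491 in the other libraries (86.0% lower), and the edge of the Zfp42 start window read 0.515 and 0.321. The full collection had a boundary at 46120001, 120 kb from the edge of the Fat1 window (0.334, 8.98% lower), which read 0.458 in the other libraries (68.0% lower). In that collection the 30 windows before Triml1 were positive in 3 to 11 of 54 libraries (median 5.5), so each D′ there rests on few calls. The part of this low detection in the minimum was not tested. Nor was the difference between both sets of libraries.

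**Figure D3:**
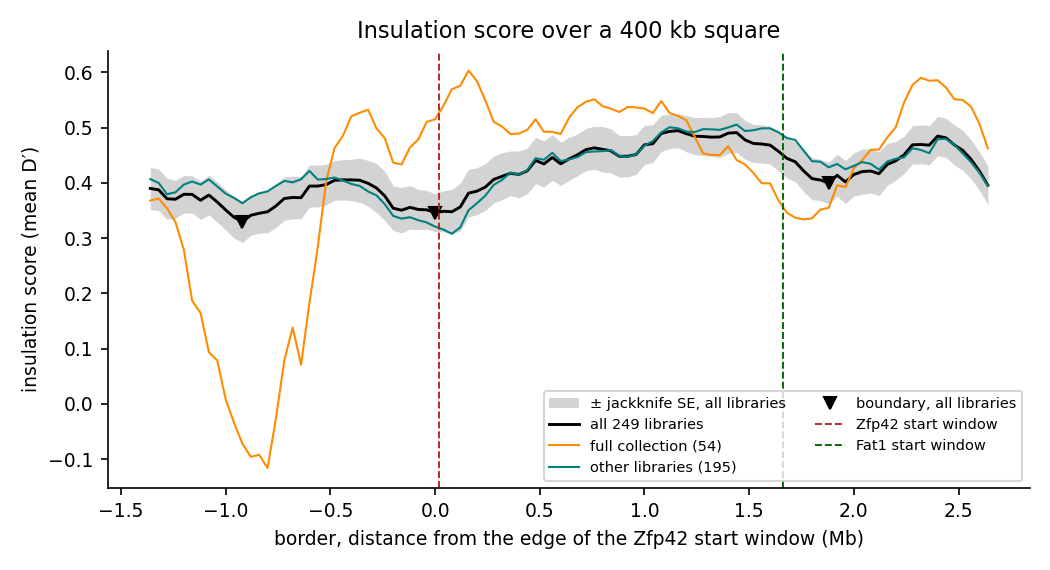
Insulation score, a mean D′ across the border (vertical axis), at each border against its distance from the edge of the Zfp42 start window in Mb (horizontal axis). Black is all 249 libraries with jackknife SE in grey, orange the full collection and teal the other libraries. Triangles mark the 3 boundaries, and the orange curve falls to -0.116 before Triml1 and lies above the others at Zfp42, where the border 80 kb past the edge of its window reads 0.569.

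Linkage was then read from each gene along the 4 Mb, as the mean z-score of the 3 windows centred on its start window. From Zfp42, the lowest value was -1.77 ± 0.85 (jackknife SE) at 560 kb before the Zfp42 window, and the lowest on the side of Fat1 was -1.71 ± 0.79 at 320 kb, in the Adam cluster. The highest was 2.08 ± 0.75 at 1360 kb, in the stretch without genes. From Fat1, the highest was 2.71 ± 0.76 at 160 kb past the Zfp42 window. These extremes were picked among 100 windows and carry no test.

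**Figure D4:**
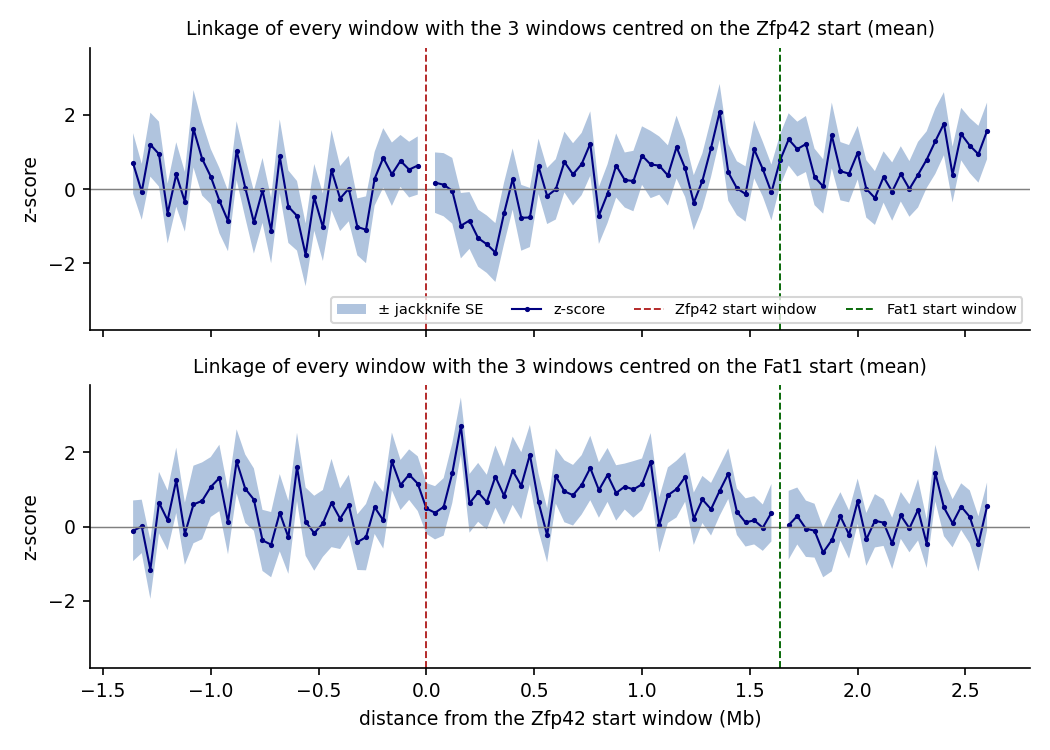
Mean z-score of D′ (vertical axes) of each window with the 3 windows centred on the Zfp42 start window (top) and on the Fat1 start window (bottom), against distance from the Zfp42 start window in Mb, with jackknife SE as bands. Values from Zfp42 fall to -1.77 before Triml1 and to -1.71 in the Adam cluster, and values from Fat1 reach 2.71 between Zfp42 and that cluster.

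Gene by gene, D′ was set against equal-distance pairs for the start windows of Zfp42 and each other gene, with no test. With Zfp42, Triml1 had a D′ of 0.528 ± 0.0921 and a z-score of 0.33 ± 0.99, and Triml2 a D′ of 0.581 ± 0.102 and a z-score of 0.69 ± 1.12. On the other side, Adam26b, 240 kb away, had a D′ of 0.269 ± 0.0870 with Zfp42 and a z-score of -2.11 ± 0.93, Gm5346 a z-score of -1.78 ± 0.97, Adam26a -1.01 ± 0.93 and Adam34 -0.10 ± 1.11. The errors are about as large as the differences between these genes, so their order is not resolved.

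With Fat1, over 1 Mb away, the genes of the Adam cluster had z-scores from 0.55 to 2.08, of which all but that of Gm5346 were within 2 SE of 0. Adam26b had a D′ of 0.433 ± 0.0912 with Fat1 and a z-score of 1.56 ± 0.97, Gm5346 had a z-score of 2.08 ± 1.00, Adam34 1.43 ± 1.13 and Adam26a 0.55 ± 0.95. The highest z-score of any gene with Fat1 was that of Triml1, at 2.80 ± 1.00 (D′ 0.519 ± 0.0940). Among the genes past Fat1, Mtnr1a had a z-score of -0.16 ± 0.87 with Fat1, F11 -0.32 ± 0.88, Klkb1 0.92 ± 0.85, Cyp4v3 -0.65 ± 0.92, Fam149a 0.15 ± 0.89 and Tlr3 -0.08 ± 0.81.

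With Zfp42, the genes past Fat1 had z-scores from 0.06 ± 0.83 (Tlr3) to 1.96 ± 1.1 (Pdlim3). Mtnr1a had 1.12 ± 0.89 and Sorbs2 0.82 ± 0.86. Pdlim3, 2600 kb from Zfp42, had a D′ of 0.408 ± 0.0996 with it, and the D′ of Zfp42 with Adam26b at 240 kb was 0.269 ± 0.0870. This difference was not tested.

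In blocks of windows named for their genes, and drawn after the values had been seen, the 25 pairs between Triml1-Zfp42 and Fat1-Mtnr1a had a mean z-score of 1.54 ± 0.50 (jackknife SE), and 21 of them were above 1, where 14.9% of chr. 8 pairs up to 4 Mb apart are. The 25 pairs between Triml1-Zfp42 and the Adam cluster had -0.77 ± 0.56, and 10 of them were below -1, where 15.2% of chr. 8 pairs are. In the full collection the first value was 0.78 and the second 0.36, so the second changed sign. The windows before Triml1 had -0.99 ± 0.37 with the Adam cluster and -0.61 ± 0.30 among themselves, where the latter was -1.25 in the full collection and -0.34 in the other libraries. The 150 pairs of the stretch without genes had 0.54 ± 0.47 with Triml1-Zfp42, and with Fat1-Mtnr1a the stretch had 0.98 ± 0.40. Over all pairs of the 4 Mb, the mean z-score was between -0.16 and -0.06 in each of 4 distance classes, with errors from 0.19 to 0.36. These means take in blocks above and below 0.

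**Figure D5:**
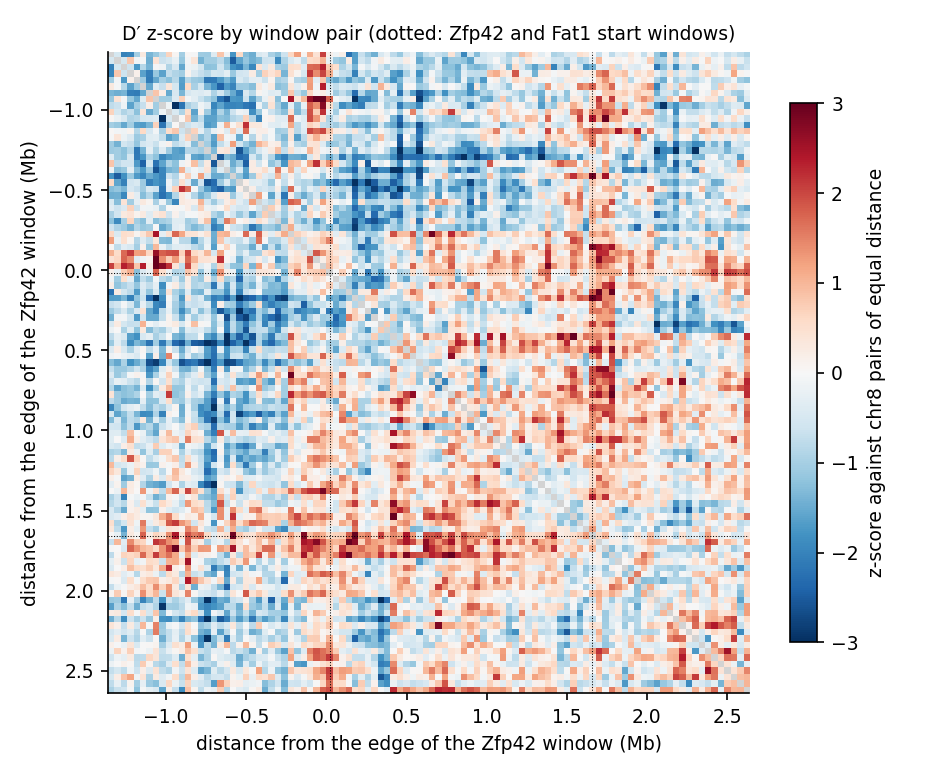
Each cell is the z-score of D′ of a pair of the 100 windows against chr. 8 pairs of equal distance (colour, clipped at -3 and 3), with both axes in Mb from the edge of the Zfp42 window and dotted lines at the Zfp42 and Fat1 start windows. The area where the Zfp42 and Fat1 lines cross is mostly above 0, with a mean of 0.92 between the flanks, and the pairs of the windows before Triml1 with the Adam cluster are mostly below 0 (mean -0.99).

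Among 1061 protein-coding starts on chr. 8 at least 200 kb away, those whose calls were most alike were found from the correlation of coverage-adjusted calls over the 249 libraries, as a description. For Zfp42 these were Pdlim3 (r = 0.358, both positive in 27 libraries), Kcnu1 (r = 0.334) and Fnta (r = 0.321), the last 2 over 17 Mb away. For Fat1 they were Klkb1 (r = 0.434, both positive in 30 libraries), the start window shared by 4933411K20Rik and Snx25 (r = 0.392) and Sorbs2 (r = 0.370), all within 1200 kb. Libraries, their coverage and the distance along the chromosome are shared by these points.

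Detection of both genes was also compared across the experiments. The Zfp42 start window was positive in 9.09% of libraries in the proteinase K test (1 of 11) to 30.8% in the cresyl violet test (8 of 26), and the Fat1 start window in 10.0% in the propidium iodide test (2 of 20) to 43.5% in the early freezing test (10 of 23). A permutation test of the F statistic found no difference for the Zfp42 (F = 0.590, adjusted p = 0.825) or the Fat1 start window (F = 1.38, adjusted p = 0.373). The same held for the flanks taken net of the rest of chr. 8 (adjusted p = 0.579 and 0.373).

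Between protocol arms, 0 of 22 contrasts of flank detection net of the rest of chr. 8 passed the threshold after adjustment, and 2 did before it. Both concern the Zfp42 flank in the PCR cycle test. With 20 cycles the flank was at -9.74 points ± 7.85 (SD, n = 4) and with 23 cycles at -24.6 ± 3.33 (SD, n = 5), a difference of 14.9 points (exact permutation p = 0.00794, adjusted p = 0.175). With 25 cycles it was at 27.1 ± 24.03 (SD, n = 3), and it lay above that of 23 cycles (exact permutation p = 0.0179, adjusted p = 0.196). The Zfp42 flank itself was at 0% in all 4 libraries of 20 cycles and at 1.82% ± 4.07 with 23 cycles, so the first difference is one of the rest of chr. 8.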

How the data were processed

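Genomic DNA of 249 multiplex-GAM libraries was analysed. According to the study's methods, reads were aligned by the authors to mm9 with Bowtie2 (2.1 in the submitters' processing notes), duplicates were removed, and 40 kb windows were called positive with GAMtools at a fixed read threshold. The deposited table holds a binary call of 1 or 0 for each window and library that passed the authors' quality control. Other values, and hence depth, were not used here, and failed libraries were not analysed here. Library coverage was 18.2% ± 7.69 of windows (SD, n = 249), from 3.40% to 45.2%. No 2 libraries had identical calls, and 0 columns lacked a sample.

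Genes came from GENCODE vM1 on NCBIM37, in which all 21 chromosome lengths equal those of the table. Gene starts are those of the gene records, and other models of Fat1 may start further upstream. The named genes were those listed for this interval, the genes at boundaries and the 3 starts most alike to each gene. The members and lists were chosen with earlier results of these data known.

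D′ was computed for windows positive in at least 25 libraries, up to 4 Mb apart, and turned into a z-score per distance over chr. 8. Errors are delete-1 jackknife SE over libraries. For the flank tests, the expected call of a window was its detection frequency times the coverage of the library relative to the mean coverage, and the call minus this value was divided by the SD of the window. Sign-flip and F tests drew 100000 resamples or were exact, two-sided, with Benjamini-Hochberg adjustment within each family (4 detection, 4 flank, 4 experiment and 22 arm tests). Differences of protocol between experiments cannot be told apart from other differences between them. The flank test and boundary call were also run on simulated calls, where all windows of a library had the same expected detection. The outcome is not given here, and these runs do not cover the uneven detection of the real windows. Analyses used Python 3.11.15, numpy 2.4.6, pandas 2.3.3 and scipy 1.17.1. Alternatives left out libraries and experiments and changed filters, flank sizes, adjustments and insulation settings.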

Additional observations from a re-analysis of the deposited data

Results flagged for a closer look

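In the 27 combinations of a group of 4 to 10 libraries with a detection measure (region, Zfp42 flank or Fat1 flank, each net of the rest of chr. 8), 4 held a library far from the others of its group by Dixon's criterion. Chance gives this in about 1 of 20 groups of normally distributed values, and the chance rate for flank detection, which is at 0% in 134 (Zfp42) and 139 (Fat1) of 249 libraries, was not determined. For the Zfp42 flank these were replicate 1 of the 2 µl proteinase K arm (62.6 points, group median -12.9, n = 6), replicate 9 of the SYBR Gold test (82.5 points, median -2.86, n = 10) and replicate 5 of protocol-c (55.7 points, median -7.33, n = 10). For the Fat1 flank it was replicate 4 of the 23-cycle arm (39.9 points, median -23.1, n = 5).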

How the results depend on the processing

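No paired analysis was possible because a replicate number is the name of a library and links no samples. Of 247 values under other settings, 221 kept their direction and side of the threshold or moved by less than their error. For the gene pair, the 24 alternatives, among them an observed over expected ratio (2.13), a phi correlation (0.305) and a permutation within coverage tertiles (p = 9e-05), gave positive linkage past the threshold, and its z-score lay between 0.24 and 0.97. Net linkage between the flanks ranged from 0.0308 to 0.0946 and passed the threshold after adjustment only without the propidium iodide test (0.0842), while its unadjusted p was from 0.0240 to 0.375. Within minus between ranged from -0.101 to -0.0592 and missed it only in the full collection (-0.0717, 54 libraries); over experiments it missed it with at least 40 positive libraries (-0.0678) and with flanks of 3 windows on each side (-0.0651). Linkage inside a flank, past the threshold in no setting, changed sign inside the Fat1 flank without the eosin test (0.00170), without the full collection (0.0210), with flanks of 3 (0.0125) and 10 windows (0.00973) on each side and without coverage adjustment (0.00235), and inside the Zfp42 flank in the full collection (0.130) and with flanks of 3 windows (0.0127). Region detection, read here by its unadjusted p (0.133 in the main comparison), passed the threshold with windows positive in at least 25 libraries (-2.75 points) and against all other autosomal windows (-2.36 points). Between the start windows, 3 boundaries were called with a 200 kb square and 1 with a prominence of 0.25 SD, 1 in the full collection and 1 in all other libraries. Leaving out an experiment, an alternative added after the data were seen, gave 1 without the freezing after incubation, 1 without the full collection, 1 without the propidium iodide, 1 without the proteinase K and 1 without the reagent volume experiment. Leaving out each library gave 0 to 1. The cause of these changes was not tested. With at least 40 positive libraries, 31.7% of the borders between both genes had a score, so the count of 0 there covers few borders. The number of libraries limits precision, and the depth of a call is unknown.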
